A study of Homo sapiens with 4 samples.

Results

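Broad domains of reduced H3K4me3 are described here: the regions of at least 7000 bp in the list of regions where H3K4me3 was lower in MDA-MB-231 cells treated with 2.5 μM Tat-SID than in untreated cells. The list held 2063 regions, and 345 of them were selected on this length. MDA-MB-231 cells are an established line from a human breast cancer of the triple-negative type. Tat-SID is a peptide that joins a cell-penetrating Tat sequence to a SIN3 interaction domain (SID). Native H3K4me3 ChIP-Seq, on MNase-cut chromatin and with the antibody Abcam ab1012, was done on untreated cells and on cells given Tat-SID at 1 μM or at 2.5 μM. Each condition had 1 library, and input DNA had 1. Both treated libraries were compared by the authors with the same untreated library. The lists give a chromosome, a start and an end for each region, so neither the size of a reduction nor the depth behind it is known here. With 1 library per condition there is no replicate error and no test between conditions. The cells are of 1 line, and no library from cells given a control peptide was analysed here.

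H3K4me3 is laid down on the nucleosomes around the start of transcribed genes, most of all where the DNA is rich in CpG dinucleotides, and the enzymes that write it can bind unmethylated CpG. At most active promoters the mark is narrow. At some genes, often ones that define a cell's identity, it spreads far into the gene body. SICER-df, the program the authors used, joins neighbouring enriched windows into islands and compares the reads over a whole island, so the edges of a region describe how far enrichment extended and not how far the reduction extended within it.

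Sequence at both ends of the long domains shows the setting in which they lie. Of the 20 longest domains, 4 that held exactly 1 protein-coding gene start are shown, the longest for which neither stretch touched an annotated exon. The first line of each pair gives the 120 bases just before the gene start, and the second the last 120 bases inside the domain at its downstream edge, both read along the gene from the hg19 (GRCh37) genome with every CpG in capitals.
NR2F2, before the gene start, chr15:96869047-96869166, plus strand: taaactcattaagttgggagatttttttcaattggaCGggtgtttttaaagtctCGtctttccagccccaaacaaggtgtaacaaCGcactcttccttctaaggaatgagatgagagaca
NR2F2, downstream edge, chr15:96884630-96884749, plus strand: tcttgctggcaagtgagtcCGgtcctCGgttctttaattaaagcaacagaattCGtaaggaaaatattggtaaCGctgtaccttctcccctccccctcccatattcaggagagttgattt
SMURF2, before the gene start, chr17:62658426-62658545, minus strand: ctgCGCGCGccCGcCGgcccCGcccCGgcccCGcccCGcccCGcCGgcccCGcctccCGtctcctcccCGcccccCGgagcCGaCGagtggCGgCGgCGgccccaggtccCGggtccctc
SMURF2, downstream edge, chr17:62644301-62644420, minus strand: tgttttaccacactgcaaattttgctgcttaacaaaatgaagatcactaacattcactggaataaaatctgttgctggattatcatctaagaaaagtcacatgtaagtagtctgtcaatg
IRF2BP2, before the gene start, chr1:234745925-234746044, minus strand: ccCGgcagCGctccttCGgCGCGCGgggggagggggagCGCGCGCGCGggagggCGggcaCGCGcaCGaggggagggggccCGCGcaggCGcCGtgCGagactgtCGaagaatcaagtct
IRF2BP2, downstream edge, chr1:234734501-234734620, minus strand: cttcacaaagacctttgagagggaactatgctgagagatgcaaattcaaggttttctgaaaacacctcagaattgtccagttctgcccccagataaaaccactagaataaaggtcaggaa
DCBLD2, before the gene start, chr3:98620540-98620659, minus strand: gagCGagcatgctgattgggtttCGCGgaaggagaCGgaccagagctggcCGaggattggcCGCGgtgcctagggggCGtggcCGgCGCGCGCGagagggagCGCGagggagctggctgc
DCBLD2, downstream edge, chr3:98609401-98609520, minus strand: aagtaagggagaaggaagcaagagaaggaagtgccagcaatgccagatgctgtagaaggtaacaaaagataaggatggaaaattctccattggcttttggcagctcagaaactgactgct
At SMURF2, IRF2BP2 and DCBLD2 the bases before the gene start held 21, 21 and 15 CpG and the downstream edge held 0. NR2F2 differed, with 3 CpG before the gene start and 4 at the edge. The annotated start of NR2F2 is that of its most upstream transcript, and 4 CpG islands with 5100 bp in all lay elsewhere in its domain.

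The broad domains covered 3112455 bp, which was 28.3% of all bases in the 2.5 μM list. Their lengths, which chose them, ran from 7049 to 27349 bp with a median of 8349 bp and quartiles of 7499 and 9649 bp, and 69 were at least 10000 bp long. The 1718 shorter regions had a median of 4599 bp. The cut fell inside a continuous range. Among the domains of 7049 bp, just inside it, were those at ATP1B1, PCF11, CDCA4, NOG and NIPBL, and the regions of 6999 bp just outside it included those at RCC1, a regulator of nuclear transport, and NUDT4, and 3 without a protein-coding gene start.

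A protein-coding gene start lay inside 257 of the 345 domains (74.5%, exact Clopper-Pearson 95% confidence interval 69.5% to 79.0%, which covers counting error over domains only). A gene start here is the outermost annotated 5′ end of a gene. By these outermost starts, another 42 domains held the start of a non-coding gene only. A further 34 held no gene start but the start of a further transcript of a gene. Some of the 42 held the start of the canonical transcript of a protein-coding gene, among them those of ITGB1 and NFIB. With canonical starts, 83.5% of the domains held a protein-coding gene start. Of the last 12, 3 lay inside a gene without a start and 9 outside genes. Among the shorter regions 1205 of 1718 held a protein-coding gene start (70.1%, 67.9% to 72.3%), and 77 lay outside genes.

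**Figure D1:**
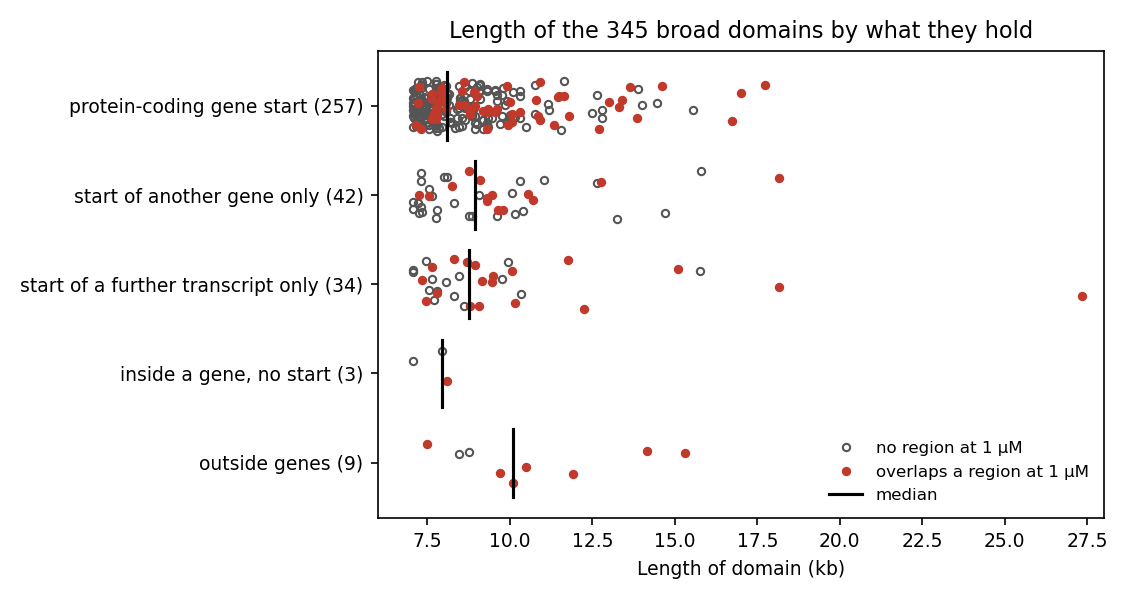
Length in kb of each of the 345 broad domains (x axis), grouped by what the domain holds (y axis, number of domains in brackets), with filled points for domains that overlap a region in the 1 μM list and a bar at the median. The longest domain, of 27349 bp, is in the class with the start of a further transcript only, and all lengths begin above 7000 bp because length chose the domains.

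Non-coding RNA genes took the top of the length order. The longest domain, 27349 bp on chr11:122025801-122053149, lay within MIR100HG, the host gene of miR-100 and let-7a-2, around the start of further transcripts. LINC-PINT, a p53-induced long non-coding RNA, came next with 18149 bp on chr7:130585151-130603299. MIR222HG, the host gene of miR-221 and miR-222, had a domain of the same length, 18149 bp on chrX:45614951-45633099. No CpG island was found in any of the 3. MALAT1 and NEAT1, abundant nuclear RNAs, lay in domains of 12749 and 12649 bp that had 3 islands and 1 island.

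MicroRNA genes lay in or beside several domains, which was looked at after the values were seen. Within 10 kb of a domain there were 24 miRNA genes, 11 of which overlapped one. Their share of all annotated miRNA genes was not computed, so the counts show no excess. MIR100 lay 2785 bp and MIRLET7A2 8500 bp beyond the edge of the longest domain. On chromosome 21, a domain of 7349 bp held MIR99A and ended 94 bp before MIRLET7C, so 1 member of each of 2 miRNA families lay at each locus. MIR222 and MIR221 lay 8421 and 9257 bp beyond the edge of the MIR222HG domain, and MIR21 lay inside a domain of 8249 bp. The mature sequences are shown because the pairs share a seed (bases 2 to 8, in capitals), the stretch that chooses target RNAs. They are from RefSeq (GRCh38.p14), where 22 of the 24 genes were found by symbol.
hsa-miR-100-5p: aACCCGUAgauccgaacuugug
hsa-miR-99a-5p: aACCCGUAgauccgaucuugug
hsa-let-7a-5p: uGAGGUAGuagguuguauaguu
hsa-let-7c-5p: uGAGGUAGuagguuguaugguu
hsa-miR-221-3p: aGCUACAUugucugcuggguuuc
hsa-miR-222-3p: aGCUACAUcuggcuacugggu
hsa-miR-21-5p: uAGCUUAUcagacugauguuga
The miR-100 and miR-99a sequences differed at 1 of 22 bases, as did let-7a and let-7c. The miR-221 and miR-222 sequences, which share their seed, differed at 10 of the 21 bases compared at equal positions. No level of any miRNA was measured in these data.

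Among protein-coding genes, the longest domain (17749 bp, chr11:65654151-65671899) held the starts of FIBP, CCDC85B and FOSL1, the last of which encodes the AP-1 subunit FRA1. NR2F2, which encodes the orphan nuclear receptor COUP-TFII, had 16999 bp on chr15:96867751-96884749. SMURF2, a ubiquitin ligase of the TGF-beta pathway, had 16749 bp on chr17:62644301-62661049. All 3 of these domains overlapped a region in the 1 μM list. IRF2BP2, which encodes a transcriptional corepressor, followed with 15549 bp and DCBLD2, a membrane receptor gene, with 14599 bp.

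The rest of the 20 longest included EPHA2, a receptor tyrosine kinase gene, with 13999 bp, and GATA6, a transcription factor gene, with 13899 bp. DUSP4, which encodes a phosphatase of MAP kinases, had 13849 bp, and ERRFI1, which encodes an inhibitor of the EGF receptor, had 13649 bp. TSC22D2 completed them with 13399 bp. A domain of 14449 bp was assigned to APOLD1 by the outermost annotated start, but it also held the canonical start of CDKN1B, the gene of the CDK inhibitor p27. VENTXP2, a pseudogene, and NFIB-AS1, an antisense RNA gene, had domains of 15799 and 14699 bp. The domain of NFIB-AS1 also held the canonical start of the protein-coding gene NFIB.

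The 34 domains at the start of a further transcript lay in genes whose outermost annotated start was elsewhere. LMNA, which encodes lamins A and C, had a domain of 15749 bp on chr1:156083601-156099349. RUNX1, which encodes a transcription factor of blood development, had 15099 bp, and NR3C1, the glucocorticoid receptor gene, had 12249 bp. FOXP1 had 11749 bp, RND3 10349 bp and MSN, which encodes moesin, 10149 bp. In this class 19 of 34 domains (55.9%) overlapped a 1 μM region, against 59 of 257 (23.0%) of those with a protein-coding gene start, and the median lengths were 8749 and 8099 bp. The difference was not tested, because both lists share the untreated library.

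In all, 335 protein-coding genes had their start in a broad domain. That was 1.67% of the 20098 protein-coding genes that were annotated on chromosomes 1 to 22 and X, and 1853 genes (9.22%) had theirs in a reduced region of any length. The domains also held the starts of 213 lncRNA genes, 21 snoRNA genes and 11 miRNA genes. Over all biotypes they held 592 gene starts, with 63827 genes annotated. Shares for each biotype were not computed, so these counts show no excess of non-coding genes. When the start of the canonical transcript was used in place of the outermost one, 363 genes were counted and 320 were shared by both counts. The 43 genes gained included LMNA, NR3C1, CDKN1B, ITGB1, MSN, NFIB, TGIF1 and PTCH1, and the 15 lost included CCND3, DDAH1 and APOLD1.

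Of the 345 domains, 195 held exactly 1 protein-coding gene start, 48 held 2 and 14 held at least 3. In these 195 single-start domains the mark reached a median of 2074 bp upstream of the gene start (quartiles 1328 and 2888 bp) and 6327 bp downstream (quartiles 5298 and 7349 bp). The domain reached farther downstream in 176 of 195 (90.3%, 85.2% to 94.0%). Upstream reach was at least 5000 bp in 9 domains, whereas downstream reach was at least 5000 bp in 159. The shorter regions had medians of 1292 bp upstream and 3304 bp downstream, with 866 of 924 reaching farther downstream.

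**Figure D2:**
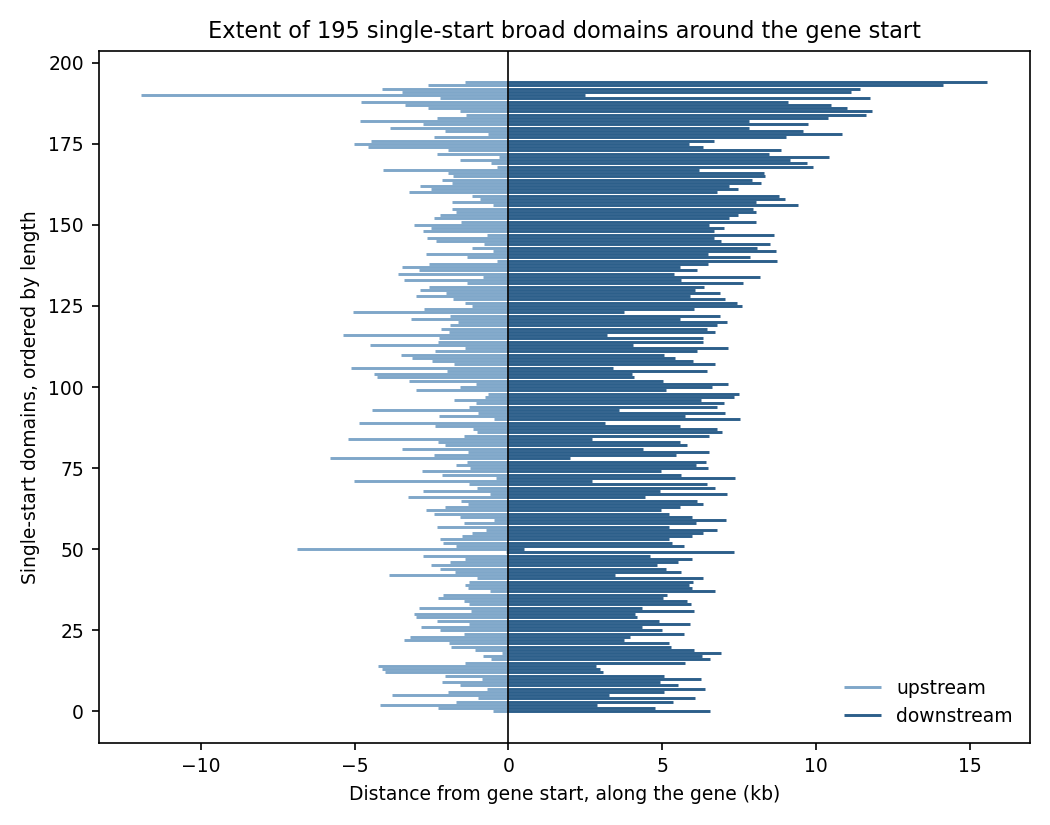
Each horizontal line is 1 of the 195 single-start broad domains, placed by distance from its gene start along the gene in kb (x axis) and ordered by length (y axis), with the upstream side light and the downstream side dark. Nearly all lines extend mainly to the right of the gene start, and the line that extends farthest to the left, 11950 bp, is APOLD1.

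The largest downstream reach was 15582 bp at NR2F2, where the domain covered the whole gene and ended beyond it. SMURF2 followed with 14124 bp, TSC22D2 with 11814 bp, EPHA2 with 11763 bp and HIF1A, the gene of a hypoxia-induced transcription factor, with 11618 bp. At SMURF2, TSC22D2 and HIF1A this edge still lay in intron 1. The largest upstream reach was 11950 bp at APOLD1, followed by 6889 bp at IGF2BP3, an RNA-binding protein gene. MKLN1 had 5804 bp, ZNFX1 5386 bp and FAM72D 5230 bp. For APOLD1 and MKLN1 the canonical transcript starts outside the domain, farther along the gene, so their upstream reach depends on the start chosen.

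Across length classes, most of the added length lay downstream. From regions under 3000 bp to domains of at least 10000 bp, the median upstream reach went from 754 to 2319 bp and the median downstream reach from 1936 to 9172 bp. The downstream share of the length went from 72.0% to 80.7% between the same classes, but not steadily. From 3000 to 6000 bp it ran from 70.4% to 72.4%. It was 74.2% on both sides of the 7000 bp cut, in the classes of 6000 to 7000 and 7000 to 8000 bp. From 8000 to 10000 bp it was 75.6%, so the largest step was to the last class, of 33 domains. Since length is the sum of both sides, each was bound to grow with it, and only the division between them is informative.

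**Figure D3:**
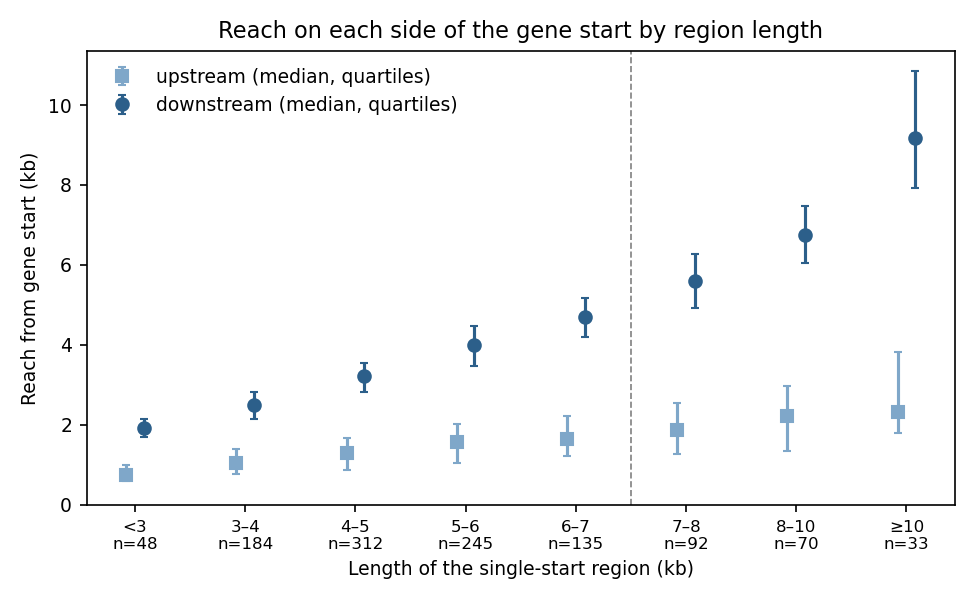
Median reach in kb (y axis; bars give the quartiles) upstream (squares) and downstream (circles) of the gene start for single-start regions in 8 length classes (x axis, with the number of regions), the dashed line marking 7 kb. The downstream medians climb from 1936 to 9172 bp and the upstream medians from 754 to 2319 bp.

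On the canonical transcript, the downstream edge lay in intron 1 for 101 of 195 single-start domains (51.8%) and in a later intron for 51. For 26 domains (13.3%, 8.90% to 18.9%) it lay beyond the end of the transcript, against 28 of 924 shorter regions (3.03%, 2.02% to 4.35%). Exon 1 was covered whole in 188 domains. The genes had a median length of 42544 bp, compared with 52096 bp for shorter regions and 27256 bp for all protein-coding genes, and a broad domain covered a median of 14.5% of the gene. Genes whose domain ended beyond the transcript were short, with a median of 5209 bp.

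Whole protein-coding genes lay inside 44 of the 345 domains (12.8%), 53 genes in all, compared with 49 of 1718 shorter regions (2.85%). A longer region can hold a gene more easily. Genes held whole included the MAP kinase phosphatase genes DUSP1 and DUSP6 and SPRY1 and SPRY2, which encode Sprouty inhibitors of receptor tyrosine kinase signalling. Others were the immediate early gene IER2, CCN1 of the YAP pathway, the WNT inhibitor gene DKK1, the antiproliferative gene BTG1 and the adrenomedullin gene ADM. These names were picked from the 53 after their values were seen.

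An antisense gene start lay inside the domain, upstream of the gene start, in 54 of the 195 single-start domains. In these the median upstream reach was 2766 bp (quartiles 2052 and 4076 bp) and the downstream reach 5586 bp. In the 141 without one the medians were 1834 bp (1193 and 2519 bp) and 6532 bp, so the upstream quartiles overlapped. A longer upstream side has more room to hold such a start, so part of this difference follows from the definition. It was not tested. From the antisense start to the upstream edge the median was 2154 bp.

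Of the 48 domains with 2 protein-coding gene starts, 26 were divergent pairs, 12 had opposite strands with overlapping 5′ ends and 10 ran on the same strand. Divergent starts lay a median of 220 bp apart, and the domain extended a median of 4874 bp past the start on its longer side and 2583 bp on its shorter side. SNX5 and MGME1 were nearly even, with 4772 and 4738 bp. IER2 was not, with 7474 bp on its side and 2246 bp on that of STX10. The domain with the most starts, 5, covered H2BC13, H2AC13, H3C10, H2AC14 and H2BC14 in a histone gene cluster on chromosome 6 and was 9049 bp long. Among the longest with 3 were those of COMMD3, COMMD3-BMI1 and the Polycomb gene BMI1 (13299 bp), of LPXN, ZFP91 and ZFP91-CNTF (11349 bp) and of SBF2, ADM and AMPD3 (9299 bp), where readthrough genes such as COMMD3-BMI1 count separately. Nearly identical histone genes can share reads.

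Genes of the 11 pathway lists lay in broad domains in small numbers. Of all protein-coding genes 1.67% did, a base that counts genes whatever their H3K4me3 in untreated cells. Of the 1853 genes with their start in a reduced region of any length, 18.1% did. The list shares below are over all members of a list, so their base is 1.67% and not 18.1%. Among members in any reduced region, broad domains held 6 of 8 AP-1, 4 of 10 YAP, 5 of 12 mesenchymal and 3 of 5 EMT genes. They held 3 of 9 tumour suppressor, 2 of 5 cyclin, 2 of 5 SIN3, 2 of 12 ribosomal and 1 of 7 cytokine genes. Luminal genes had 0 of 1 and H3K4 enzyme genes 0 of 3. The lists were chosen with earlier results of these data known, so their shares are descriptive and enrichment was not tested. Lists this short cannot separate a count of none from a share of 1.67%. Of 26 AP-1 and immediate early genes, 6 had their start in one (23.1%). FOSL1 had the 17749 bp domain, KLF6 10299 bp, IER2 9749 bp, FOSL2 9449 bp, MYC 8899 bp and JUN 7299 bp. A further 2, IER5 and NR4A3, lay in shorter regions and 18 in none.

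Of 30 mesenchymal and basal B breast cancer genes, 5 were in broad domains (16.7%). These were the integrin genes ITGA2 (10799 bp) and ITGA3 (8949 bp), VIM, which encodes the intermediate filament vimentin (9099 bp), NT5E (8649 bp) and the hyaluronan receptor gene CD44 (8049 bp). Another 7 were in shorter regions. With canonical starts 8 of the 30 were counted, with ITGB1, MSN and ANXA2 added. The 22 luminal epithelial genes had 0 in broad domains and 1, XBP1, in a shorter region. The level of H3K4me3 at these genes in untreated cells was not analysed here.

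In the YAP, TAZ and TEAD pathway, 4 of 21 genes (19.0%) lay in broad domains. CCN1, a secreted target of the pathway, had 11549 bp, the receptor tyrosine kinase gene AXL 8999 bp, the transcription factor gene TEAD1 8499 bp and AJUBA 7449 bp. YAP1, CCN2, ANKRD1, LATS1, STK3 and SAV1 were in shorter regions. Of 26 EMT and TGF-beta genes, 3 (11.5%) were in broad domains, the receptor gene TGFBR2 (9599 bp), the ligand gene TGFB2 (8199 bp) and the signal transducer gene SMAD3 (7699 bp).

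Of 31 tumour suppressor genes, 3 (9.68%) were in broad domains, among them ARID1A with 10749 bp and ZFP36L1 with 10299 bp. With canonical starts 5 were counted. Cyclins, CDKs and their inhibitors had 2 of 23, CDK6 (9599 bp) and CCND3 (8649 bp). With canonical starts the count was also 2, with CDKN1B in place of CCND3. The list of cytosolic ribosomal protein genes, which holds 46 and not the whole family, had 2, RPLP0 (9899 bp) and RPS18 (7599 bp), both in domains with further protein-coding gene starts, and 10 in shorter regions. Family members outside the list, RPL27A (8649 bp), RPL23A (7449 bp) and RPL17 (7199 bp), were in broad domains as well. The SIN3 complex list, which also holds DNA-binding factors such as MAX, MXD1 and KLF9, had 2 of 30. These were SIN3A (7849 bp), which encodes the protein that SID binds, and SAP30 (7199 bp). The list of cytokines and chemokines, which also holds NF-kappaB pathway genes, had 1 of 21, BIRC3 (7399 bp), which encodes an inhibitor of apoptosis and no cytokine. CXCL1, CXCL2, CXCL3, CXCL8 and IL1A were in shorter regions. None of the 18 H3K4 methylation and demethylation enzymes was in a broad domain, and KMT2C, KDM5A and KDM1A were in shorter regions.

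Of the genes the study examined for H3K4me3, CD44 was thus in a broad domain, from 1278 bp upstream of its start to 6770 bp downstream. ITGA6 and SNAI2 were in shorter regions of 5799 and 4699 bp. The outermost annotated starts of CDH1 and ESR1 were in no reduced region.

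CpG content extended farther into the genes of broad domains. From 1000 bp before to 1000 bp after the gene start the mean was 65.6 CpG per kb in single-start broad domains, 55.8 in single-start shorter regions and 44.9 at all protein-coding genes. From 1000 to 3000 bp downstream the means were 34.8, 17.7 and 19.6 CpG per kb. Between 5000 and 7000 bp downstream, the span that holds the median downstream reach of 6327 bp, broad domains had 11.1 CpG per kb, against 14.6 at all genes. Single-start shorter regions were lower still there, at 9.79 to 10.4 per bin of 250 bp, so a value below that of all genes was not particular to broad domains. The median downstream edge thus lay past the CpG-dense stretch, as did the downstream edges of SMURF2, IRF2BP2 and DCBLD2 shown above.

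**Figure D4:**
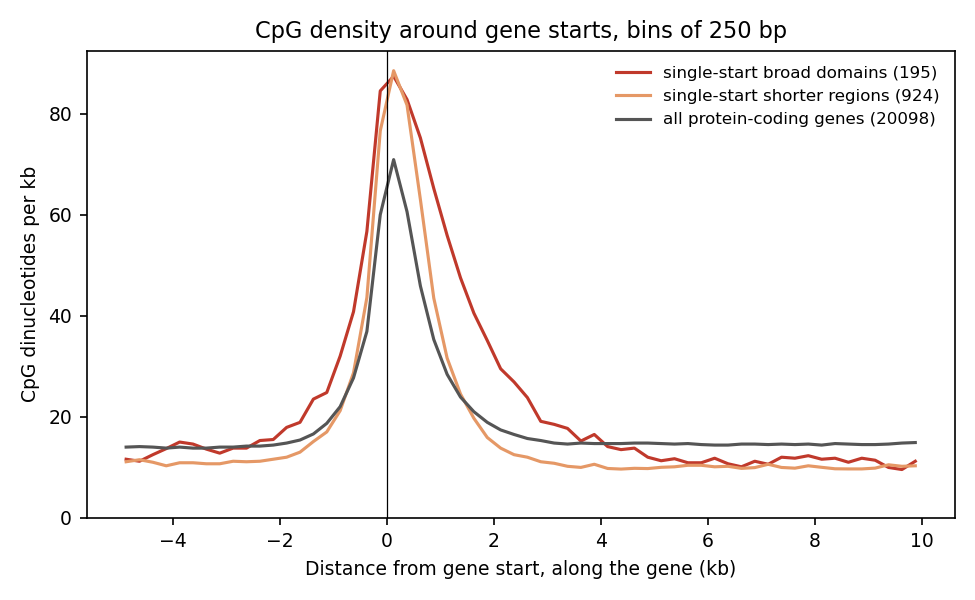
Mean CpG dinucleotides per kb (y axis) in bins of 250 bp by distance from the gene start along the gene in kb (x axis), for single-start broad domains, single-start shorter regions and all protein-coding genes. The line for broad domains stays above the other lines from 1 to 3 kb downstream and falls below that for all protein-coding genes farther on, with 11.1 against 14.6 CpG per kb from 5 to 7 kb. The line for shorter regions also lies below that for all protein-coding genes there.

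CpG islands, taken as merged windows of 200 bp with a GC content over 50% and an observed to expected CpG ratio over 0.6, of at least 500 bp, covered a median of 1870 bp of a broad domain and 1160 bp of a shorter region. At least 2 islands lay in 111 of 345 broad domains (32.2%) and in 169 of 1718 shorter regions (9.84%), though a longer region has more room for them. As a share of all bases, islands took 22.5% of broad domains and 24.3% of shorter regions. Median GC contents were 46.0% and 45.0%. IRX5, a homeobox gene with a domain of 12649 bp, had 7960 bp in islands, the most of any domain.

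The 9 domains outside genes had a low GC content, with a median of 35.3% against 46.0% over all broad domains. None held a CpG island, which was not particular to them, since 45 of the 345 domains had none. The longest of the 9, chr3:104151601-104166899 with 15299 bp, lay 919 kb from the nearest protein-coding gene start, that of ALCAM. The next, chr4:35099651-35113799 with 14149 bp, lay 1132 kb from that of ARAP2, and both had exactly the same start and end in the 1 μM list. In all, 7 of the 9 overlapped a 1 μM region.

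Repeated sequence was found in few domains. In 293 of 345 no sampled stretch of 100 bases, the read length, occurred elsewhere in the genome. More than 20% of stretches did in 9 domains, of which 4 were on chromosome 9, 3 held FAM72A, FAM72B or FAM72D, 1 held HSPA1B and 1 held CYTOR. Reads there cannot be assigned to 1 copy. Of the 9 domains outside genes, the 2 on chromosome 9 had 75% and 76% of repeated stretches.

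At 1 μM, 100 of the 345 domains overlapped a reduced region (29%), compared with 43 of 1718 shorter regions (2.50%). Longer regions overlap others more easily, and the shared untreated library can give overlap by itself, so this was not tested. By rank of length, 13 of the longest 20 domains overlapped a 1 μM region, 17 of the next 30, 20 of the next 50 and 50 of the other 245. From the side of the 1 μM list, 98 of its 105 regions of at least 7000 bp overlapped a broad domain. Among the longest domains with none at 1 μM were those at LMNA, IRF2BP2, EPHA2 and GATA6.

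Where a domain had a 1 μM region of its own, the extents were close. Edges describe how far enrichment extended, and the same untreated library entered both lists. That library can give close edges by itself, so agreement between the doses was not tested. A single 1 μM region of 18699 bp spanned 2 neighbouring domains at ARHGAP29 and ARHGAP29-AS1, and these were left out here. Of the other 98 domains, 50 had the same start at both doses, 51 the same end and 23 both. Both edges lay within 500 bp in 83. The region was longer at 1 μM in 52, shorter in 21 and equal in 25, with a median difference of 50 bp and a range from -1600 to 3950 bp (1 μM minus 2.5 μM). MIR100HG measured 26999 bp at 1 μM and 27349 bp at 2.5 μM, and ERRFI1 measured 13649 bp at both.

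**Figure D5:**
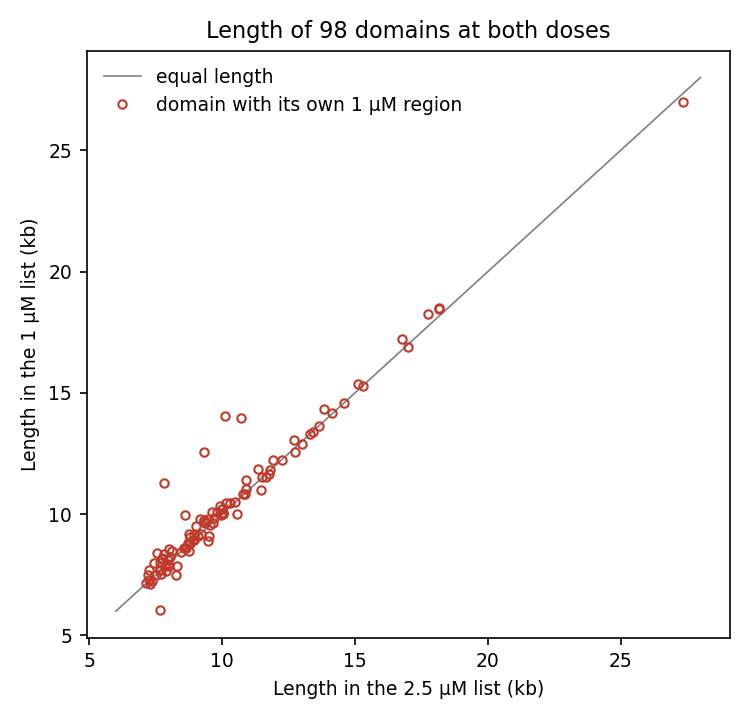
Length in kb in the 1 μM list (y axis) against length in the 2.5 μM list (x axis) for the 98 domains with a 1 μM region of their own, with a line of equal length. Most points lie on or just above the line, and differences run from -1600 to 3950 bp. Both lists share the untreated library, which can give similar lengths by itself.

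Broad domains lay on every autosome and on chromosome X. Per 100 protein-coding genes, chromosome 4 had 3.29, chromosome 6 had 2.96, chromosome 5 had 2.71 and chromosome 10 had 2.70. The lowest values were 0.444 on chromosome 22, 0.460 on chromosome X, 0.465 on chromosome 16 and 0.541 on chromosome 19. With 2 domains on chromosome 22 and 4 each on chromosomes 16 and X, the low values rest on few domains. As a share of the reduced regions of any length, the order differed. Broad domains were 15.7% of these on chromosome 4, 17.7% on chromosome 6, 15.5% on chromosome 5 and 20.4% on chromosome 10. They were 18.2% on chromosome 22, 7.14% on chromosome X, 17.4% on chromosome 16 and 25.8% on chromosome 19. Chromosome 19 had 31 reduced regions of any length and chromosome 4 had 159.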

How the data were processed

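The authors aligned single-end 100 nt reads to hg19 with Bowtie (version 1.0.0), after FastQC (version 0.10.0), and called changed regions with SICER-df. The tools MACS2 (version 2.1.0) and SICER also stand in the submitters' processing notes. The deposited lists hold positions only, with no read number, fold or FDR, and the FDR threshold differs between the study's methods and results. All edges lay on a grid of 50 bp. Depth per library is not given in the lists. The list of increased regions was not used here. Some items are not reported here.

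Intervals were placed on GENCODE release 44 genes of GRCh37 on the autosomes and chromosome X, and positions are printed from 1. Reach was measured from the outermost gene start. Repeats were stretches of 100 bases, sampled every 50 bp, found elsewhere on either strand. Shares carry exact Clopper-Pearson 95% intervals, and no test was run. The interval functions were tested on simulated data.

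The domains and gene lists were chosen with earlier results of these data known. Genes were named by rule: those of the 20 longest domains, 5 on each side of 7000 bp, the 5 largest upstream and downstream reaches, the 5 domains with most starts, the 5 longest without a gene start, the list members and 5 genes the study examined. Others, among them miRNA genes, divergent pairs, whole genes held and genes gained or lost with canonical starts, were chosen after their values were seen. Alternatives were the length threshold, merging of regions, the gene start, the genes counted, the overlap that counts as shared and the window for GC. Python 3.11.15, numpy 2.4.6, pandas 2.3.3, scipy 1.17.1, pysam 0.24.0 and samtools 1.23.1 were used.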

Additional observations from a re-analysis of the deposited data

How the results depend on the processing

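No difference between conditions could be tested, since each condition had 1 library and the lists hold no value per region, so a stricter threshold of the authors' was not run either. No paired analysis was possible because no group had a replicate. The results turned most on the length threshold. At 6000 bp and 10000 bp there were 574 and 69 domains with 562 and 54 genes, the downstream medians were 5388 and 9172 bp and the shares that overlapped a 1 μM region 21.4% and 55.1%. At 10000 bp the share with a protein-coding gene start was 60.9%, the upstream median 2319 bp, the share reaching farther downstream 97% and the median GC content 44.8%. With canonical starts the share with a protein-coding gene start was 83.5%, and the upstream and downstream medians were 2462 and 5951 bp. With all annotated genes 592 genes were counted and 86.7% of domains held a start. With exactly 1 gene start of any biotype, 78.3% reached farther downstream, and over the central 5 kb the median GC content was 48.4%. Merging regions within 3000 bp moved none of these 8 results beyond its interval, or by over 1.5 times for counts. For the gene lists, alternatives chosen after seeing the data gave 8 mesenchymal and 5 tumour suppressor genes with canonical starts, and 4 SIN3 complex and 4 ribosomal genes at 6000 bp. At 10000 bp there were 2 AP-1 genes, 1 YAP pathway gene and 1 mesenchymal gene, and 0 in the EMT, SIN3 complex, ribosomal, cyclin and cytokine lists.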
